A study of Mus musculus with 2 samples.

Results

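Interferon-stimulated genes were followed across the vessel types of mouse lung, in endothelial cells (ECs) isolated 6 h after the arrival of melanoma cells. The set was a list of 37 symbols, taken as given, and it was drawn up with earlier results of these data known. Of these, 35 were found among the 32285 genes of both count matrices, and Mx1 and Mx2 were not analysed here. The list was read in 2 single-cell libraries, 1 per group. In the control group, wild-type C57BL/6 mice received phosphate-buffered saline through the tail vein. In the B16-F10 group, mice of the same strain and genotype received 400000 cells of B16-F10, a mouse skin melanoma line, in 100 microlitres. Both groups were taken after 6 h, and no allele or drug was added in either. After digestion of the lungs, cells were sorted for Pecam1 (CD31), which marks endothelium, and against Ptprc (CD45), which marks leukocytes. The B16-F10 library also received melanoma cells sorted by their tracker dye. Each library pooled the cells of several animals, 2 per the labels, and the paper differs on that number. No replicate library was analysed here, so there is no test and no p-value below. Each ratio compares these libraries, and its 95% interval covers counting error only. Per the methods, the injected mice were young adult males.

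Interferons are secreted proteins that cells release when they sense viruses, stray nucleic acid or other danger. Type I interferons bind the receptor chains Ifnar1 and Ifnar2, which act through Jak1, Tyk2, Stat2 and Irf9 and lead to binding at the interferon-stimulated response element (ISRE) of target genes. Interferon gamma binds Ifngr1 and Ifngr2 and acts at the gamma-activated site (GAS), with Irf1 among its early targets. Lung endothelium faces the blood directly, and resting vessels carry a low level of several of these genes, while a small fraction of cells carries many of them at once.

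Promoters of a few members are shown because they carry the response elements and because the genes behind them behaved differently after melanoma injection. The sequences come from RefSeq on GRCm38.p6, which had an entry for 27 of the 35 members. Each line gives the 150 bases before the RefSeq start, read 5′ to 3′ in the direction of the gene, with element matches in capitals. Isg15 (chr4:156200819-156200968, minus strand), Ifit1 (chr19:34640739-34640888, plus strand), Rsad2 (chr12:26456453-26456602, minus strand) and Ifi206 (chr1:173491319-173491468, minus strand) are shown for the ISRE. Irf1 (chr11:53769864-53770013, plus strand) is shown for the GAS.
Isg15: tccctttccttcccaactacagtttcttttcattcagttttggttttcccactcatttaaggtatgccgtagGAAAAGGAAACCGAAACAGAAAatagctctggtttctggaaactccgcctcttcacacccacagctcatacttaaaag
Ifit1: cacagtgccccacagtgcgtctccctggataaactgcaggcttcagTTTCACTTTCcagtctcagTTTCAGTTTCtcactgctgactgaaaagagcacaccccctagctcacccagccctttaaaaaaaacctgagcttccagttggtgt
Rsad2: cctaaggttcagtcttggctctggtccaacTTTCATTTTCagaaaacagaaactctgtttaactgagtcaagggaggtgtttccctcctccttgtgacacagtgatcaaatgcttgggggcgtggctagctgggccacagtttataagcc
Ifi206: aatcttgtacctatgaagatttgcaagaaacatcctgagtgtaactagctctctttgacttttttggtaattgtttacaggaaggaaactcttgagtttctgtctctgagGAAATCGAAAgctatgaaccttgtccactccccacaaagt
Irf1: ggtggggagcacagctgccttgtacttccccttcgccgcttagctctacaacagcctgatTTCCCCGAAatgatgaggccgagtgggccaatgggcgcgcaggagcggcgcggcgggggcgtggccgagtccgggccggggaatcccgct

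The ISRE was searched over 250 bases before the start as GAAA, any 2 bases and GAAA again, on both strands. The GAS was searched as TTCNNNGAA, which reads the same on both strands. Overlapping matches were allowed. Isg15 held 3 overlapping ISRE matches, Ifit1 held 2 on the opposite strand, and Rsad2 and Ifi206 held 1 each. The ISRE letters were found before 12 of the 27 members (44.4%), against 3.46% of 27025 genes with a promoter entry. The GAS letters were found before 5 of the 27 (18.5%), against 8.13% of all genes. Members with the ISRE letters were Bst2, Ddx60, Ifi203, Ifi206, Ifit1, Ifit3, Ifit3b, Isg15, Oas1a, Oas3, Rsad2 and Trim30a. A match is a description of these letters and not of a used site.

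Vessel classes were named from marker genes after clustering cells without the interferon genes. General capillary (gCap-like) cells, which line most of the alveolar network, numbered 4842 of control origin and 4480 from melanoma-injected mice. Aerocyte capillary (aCap-like) cells, which face the alveolar air, numbered 1449 and 972. There were 252 and 190 artery-like cells, 276 and 265 vein-like cells, and 58 and 51 LEC-like cells, from lymphatic vessels. The libraries held 85794655 and 104978816 unique molecular identifiers (UMIs, each marking 1 captured RNA molecule), and the median cell had 7510 and 8557. They shared 18 cell barcodes among the cells kept. UMIs were summed per class and given as counts per 1000000 UMIs of that class (CPM), with at least 50 UMIs over both libraries required to call a gene measured.

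In gCap-like cells, most interferon-stimulated genes were modestly higher 6 h after melanoma injection. Of 34 members measured, 23 had an interval above 0, 6 an interval below 0, and 5 an interval that held 0. How many of all genes had intervals clear of 0 was not counted, in this or any class. These interval counts thus have no background beside them. By sign alone 24 members were higher, against 45.4% of all genes. The median log2 ratio was 0.22, against -0.04 over all 13243 genes measured. A change of at least 0.5 on the log2 scale upward was reached by 6 members (17.6%), against 9.93% of all genes, and downward by 1 member (2.94%), against 12.6%. The 6 higher members were Ifi47, Ifitm3, Dhx58, Oas1a, Isg15 and Oas2, and the lower one was Ifi206. Summed over the 31 core members, which leave out Irf1, Ifitm3, Ifi27 and Bst2, the level was 2035 CPM in control and 2385 in B16-F10 lungs, a log2 ratio of 0.23 (0.22 to 0.24). UMIs of these genes sat unevenly among cells, with 5% of control cells holding 23.8% of the core UMIs, so counting intervals are narrower than the spread between cells would give.

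**Figure D1:**
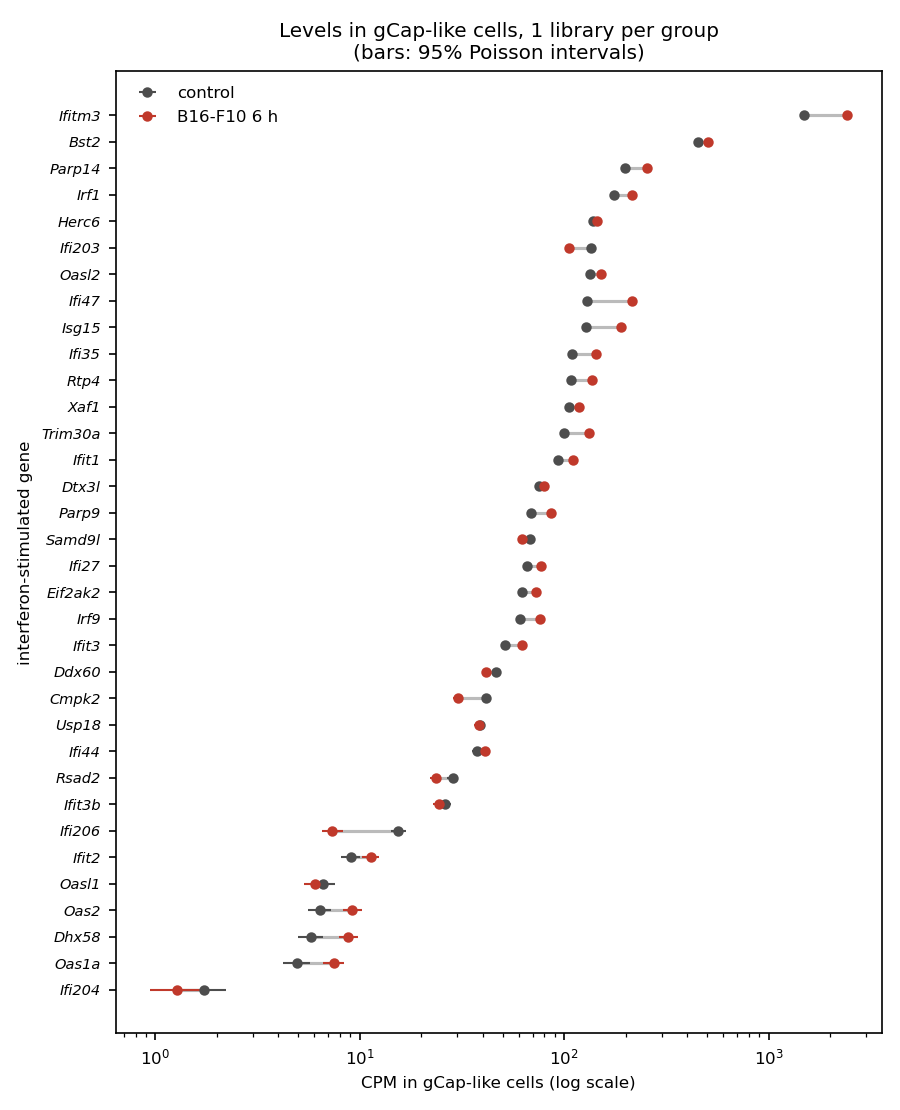
Level of the 34 measured members in gCap-like cells, in CPM on a log axis, with gray points for the control library and red points for the B16-F10 library and bars for exact Poisson 95% intervals. Ifitm3 lies at 1487 and 2404 CPM, and Ifi206 is the member with the widest gap in the other direction, at 15.5 and 7.34 CPM.

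Antiviral effectors went in both directions. Ifitm3 (chr7:141009586-141010770, minus strand), which blocks entry of viruses through endosomal membranes, had 1487 CPM in control and 2404 in B16-F10 lungs, a log2 ratio of 0.69 (0.68 to 0.71). Bst2, or tetherin, which holds budding virus at the cell surface, had 449 and 504 CPM (0.16, 0.13 to 0.19). Eif2ak2, the kinase PKR that halts translation on double-stranded RNA, had 62.3 and 72.9 CPM (0.23, 0.15 to 0.31). All 3 were higher in the B16-F10 library, and the other 3 effectors measured were lower. Rsad2, or viperin, which makes a chain-terminating nucleotide, had 28.5 and 23.5 CPM (-0.28, -0.41 to -0.15). Cmpk2, a mitochondrial nucleotide kinase encoded 12751 bases from Rsad2 on the other strand, had 41.6 and 30.2 CPM (-0.46, -0.58 to -0.35). Samd9l, a translation inhibitor, had 68.0 and 62.4 CPM (-0.12, -0.21 to -0.04). The neighbouring genes Rsad2 and Cmpk2 were thus both lower in gCap-like cells, although neither reached the fold of 0.5.

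The ISG15 system attaches the ubiquitin-like protein Isg15 to other proteins. Isg15 (chr4:156199424-156200818, minus strand) had 4654 and 7468 UMIs (control and B16-F10), or 128 and 190.2 CPM, and a log2 ratio of 0.57 (0.52 to 0.62). It was found in 1466 of 4842 cells in control and 1891 of 4480 after melanoma injection. Herc6, the ligase that transfers Isg15 in mice, had 139 and 145 CPM (0.06, 0.01 to 0.12), and Usp18, which removes Isg15 and restrains the type I receptor, had 38.9 and 38.2 CPM (-0.03, -0.13 to 0.08). Isg15 was thus higher with little difference in its ligase and an interval around 0 for its protease.

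Among the IFIT genes, which bind viral RNA and lie together on chromosome 19, 3 of 4 were higher. Ifit1 had 93.6 and 111 CPM (0.24, 0.17 to 0.31), Ifit2 had 9.01 and 11.3 (0.32, 0.12 to 0.54), and Ifit3 had 51.4 and 61.9 (0.27, 0.18 to 0.36). Ifit3b had 26.2 and 24.4 CPM, and its ratio of -0.10 held 0 (-0.24 to 0.03). Ifit3 and Ifit3b are near-identical copies that can share reads, so their split is uncertain.

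The OAS genes make or resemble enzymes that produce 2-5A, the signal that activates RNase L. Oas1a had 178 and 293 UMIs (log2 ratio 0.61, 0.33 to 0.88) and Oas2 had 231 and 361 (0.53, 0.29 to 0.78). Oasl2 had 4868 and 5911 UMIs and a lower ratio (0.17, 0.11 to 0.22). Oasl1 had 241 and 238 UMIs (-0.13, -0.40 to 0.13), and Oas3, with 2 and 5 UMIs, was not measured. Oas1a belongs to a family of close copies, so reads may be divided among them.

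Of the RNA helicases, Dhx58 (LGP2, a regulator of RNA sensing) had 209 and 345 UMIs, a log2 ratio of 0.61 (0.36 to 0.86), while Ddx60 had 46.4 and 41.5 CPM (-0.16, -0.26 to -0.06). Both transcription factors were higher. Irf1 had 175 and 215 CPM (0.30, 0.25 to 0.34), and Irf9, the DNA-binding part of the type I complex, had 60.7 and 75.8 CPM (0.32, 0.24 to 0.40). Among the PARP proteins, which modify others with ADP-ribose, Parp9 had 68.4 and 86.0 CPM (0.33, 0.26 to 0.41) and Parp14 had 198 and 253 (0.35, 0.31 to 0.40). Dtx3l, the ubiquitin ligase that pairs with Parp9, had 75.4 and 79.3 CPM, and its ratio of 0.07 just held 0. Parp9 and Dtx3l overlap by 682 bases on opposite strands, so reads in that stretch are uncertain if strand was not used.

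The p200 family, sensors and regulators of nuclear DNA encoded together on chromosome 1, stood apart as the group with no higher member in gCap-like cells. Ifi206 (chr1:173468485-173491041, minus strand) had 561 and 288 UMIs (control and B16-F10), or 15.5 and 7.34 CPM, and a log2 ratio of -1.08 (-1.29 to -0.87). It was found in 358 of 4842 cells in control and 199 of 4480 after melanoma injection. Ifi203 had 135 and 105 CPM (-0.36, -0.42 to -0.30). Ifi204 had 63 and 50 UMIs (-0.45, -1.01 to 0.11). The family holds close copies, and Ifi203 shares 22085 bases of its span with Mndal on the same strand, so the assignment of reads to single members is uncertain.

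The remaining 7 members were all higher. Ifi47 (chr11:49076587-49096974, plus strand), an immunity-related GTPase, had 129.6 CPM in control and 215 in B16-F10 lungs, a log2 ratio of 0.73 (0.68 to 0.78), the highest of the 34. Its span lies within that of Olfr56 on the same strand, so its count depends on how shared reads were treated. Trim30a, a ubiquitin ligase of the TRIM family, had 99.7 and 131 CPM (0.40, 0.34 to 0.46). Ifi35, a small interferon-induced protein, had 109 and 143 CPM (0.39, 0.33 to 0.45). Rtp4, a transporter chaperone that also restrains RNA viruses, had 107 and 136 CPM (0.34, 0.29 to 0.40). These 4 had the highest ratios of the group. Ifi27, a mitochondrial protein, had 65.7 and 76.6 CPM (0.22, 0.14 to 0.30). Xaf1, which favours cell death, had 106 and 118 CPM (0.15, 0.09 to 0.21), and Ifi44 had 37.5 and 40.7 (0.12, 0.01 to 0.22). Part of the span of Rtp4 is also covered by Gm45338, a gene of the matrices on the same strand.

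Members with the ISRE letters and members without them both included higher and lower genes. Of 11 measured members with them, 6 were higher, 4 lower and 1 held 0, with a median of 0.16. Of 15 with a promoter entry but without the letters, 11 were higher, 2 lower and 2 held 0, with a median of 0.17.

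In aCap-like cells the differences were larger. Of 31 members measured, 19 had an interval above 0, 3 below 0, and 9 held 0, with a median log2 ratio of 0.40 against 0.01 over 11105 genes. By sign 26 were higher, against 50.7% of all genes. The fold of 0.5 was reached upward by 10 members, against 9.38% of all genes, and downward by 1, against 11.1%. Ifi47 had 41.3 and 119 CPM (1.53, 1.38 to 1.68). Ifitm3 had 172 and 433 CPM (1.33, 1.26 to 1.41). Isg15 had 49.4 and 102 CPM (1.05, 0.91 to 1.19). All 3 started lower in aCap-like than in gCap-like cells and were still lower after melanoma injection, although their ratios were higher. The other 7 past the fold were Rtp4 (0.73), Ifit3 (0.72), Irf1 (0.71), Ifit3b (0.60), Dhx58 (0.60, an interval that held 0), Ifit1 (0.56) and Dtx3l (0.56). Ifi206 had 15.3 and 7.43 CPM, a ratio of -1.04 (-1.43 to -0.66) close to that in gCap-like cells. The core sum was 1445 and 1865 CPM (0.37, 0.34 to 0.40). Markers of other cells also differed in aCap-like cells, with erythroid markers at 1992 and 1096 CPM, epithelial at 156 and 122, macrophage and monocyte at 29.9 and 42.7, neutrophil at 3.20 and 7.25, and melanoma at 46.1 and 67.5. Their part in these ratios was not tested.

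The aCap-like ratio minus the gCap-like ratio had a counting interval above 0 for 14 of 31 members, against 20.5% of all genes measured in both classes, and below 0 for none, against 15.8%. The difference was 0.80 for Ifi47 (0.65 to 0.95), 0.64 for Ifitm3 (0.57 to 0.71), 0.48 for Isg15 (0.33 to 0.63) and 0.42 for Irf1 (0.33 to 0.50). For Ifi206 it was 0.04 (-0.39 to 0.46). These differences are between pooled classes, and single clusters are given below.

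Artery-like cells showed no common direction. Of 28 members measured, 5 had an interval above 0, 6 below 0 and 17 held 0, and the median was 0.06 against 0.02 over all genes. Those higher by sign were 15, against 51.5% of all genes. The fold was reached upward by 2 members, against 10.5% of all genes, and downward by 5, against 9.67%. Ifi47 had 88.6 and 136 CPM (0.62, 0.33 to 0.91), and Ifitm3 had 1749 and 2508 (0.52, 0.46 to 0.58). The lower members were Cmpk2 with 76 and 38 UMIs (-0.85, -1.45 to -0.27), Samd9l (-0.60), Ifi44 (-0.58), Ddx60 (-0.58) and Ifi203 (-0.54). Oasl2, higher in gCap-like cells, had 238 and 173 UMIs and a ratio of -0.31 (-0.60 to -0.02). Compared with the gCap-like ratio, 1 of 28 members was above (Bst2), against 10.9% of all genes, and 9 were below, against 7.7%. The core sum was 1911 and 1871 CPM (-0.03, -0.10 to 0.04). Platelet markers were at 4.05 and 30.9 CPM and melanoma markers at 24.3 and 57.3, and their part was not tested.

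In vein-like cells, 8 of 27 measured members had an interval above 0, 3 below 0 and 16 held 0, with a median of 0.04 against -0.02 over all genes. By sign 15 were higher, against 46.2% of all genes. No member reached the fold upward, against 7.06% of all genes, and 2 reached it downward, against 8.39%. Ifitm3 had 2568 and 3405 CPM (0.41, 0.36 to 0.45), Ifi47 had 149 and 198 (0.41, 0.23 to 0.59), and Isg15 had 137 and 177 (0.37, 0.18 to 0.56). These 3 were higher in vein-like cells as in capillaries, but the IFIT genes were not. Ifit2 had 40 and 17 UMIs (-1.26, -2.17 to -0.41), found in 32 and 17 cells. Ifit3b had 138 and 87 UMIs (-0.69, -1.09 to -0.29), and Ifit1 had 329 and 265 (-0.33, -0.57 to -0.10). A small number of cells carried much of Ifit1, with 5 cells holding 110 of the control UMIs and 89 of the B16-F10 UMIs. Compared with the gCap-like ratio, 12 of 27 members were below, all 4 IFIT genes among them, against 13.6% of all genes, and 1 was above, against 9.79%. That one was Ifi203, with 78.4 and 93.5 CPM (0.25, an interval from just under 0 to 0.51). The core sum was 2031 and 2128 CPM (0.07, 0.02 to 0.12). Hemoglobin RNA differed here too, with the 5 erythroid markers at 506 CPM in control and 3678 in B16-F10 vein-like cells, and its part in these ratios was not tested.

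LEC-like cells were few, and 8 members were measured. Their median was 0.08 against -0.01 over all genes, with 1 interval above 0, 1 below and 6 holding 0. Those higher by sign were 6, against 47.3% of all genes. The fold was reached upward by 1 member, against 11.3% of all genes, and downward by 1, against 11.1%. Ifitm3 had 1603 and 1616 CPM (0.01, -0.13 to 0.16), and its ratio lay below that of gCap-like cells beyond counting error, as did that of Ifi27. These were 2 of 8 members, against 13.7% of all genes, and none lay above, against 12.7%. Bst2 had 347 and 470 CPM (0.44, 0.14 to 0.73), Ifi35 had 19 and 32 UMIs (0.75, -0.11 to 1.65), and Ifi27 had 67 and 45 UMIs (-0.58, -1.15 to -0.01). Rsad2, under the minimum, had 24 UMIs in 4 control cells and none in 51 B16-F10 cells. The core sum was 830 and 783 CPM (-0.08, -0.29 to 0.12). Melanoma markers were at 20.8 and 72.7 CPM, and their part was not tested.

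**Figure D2:**
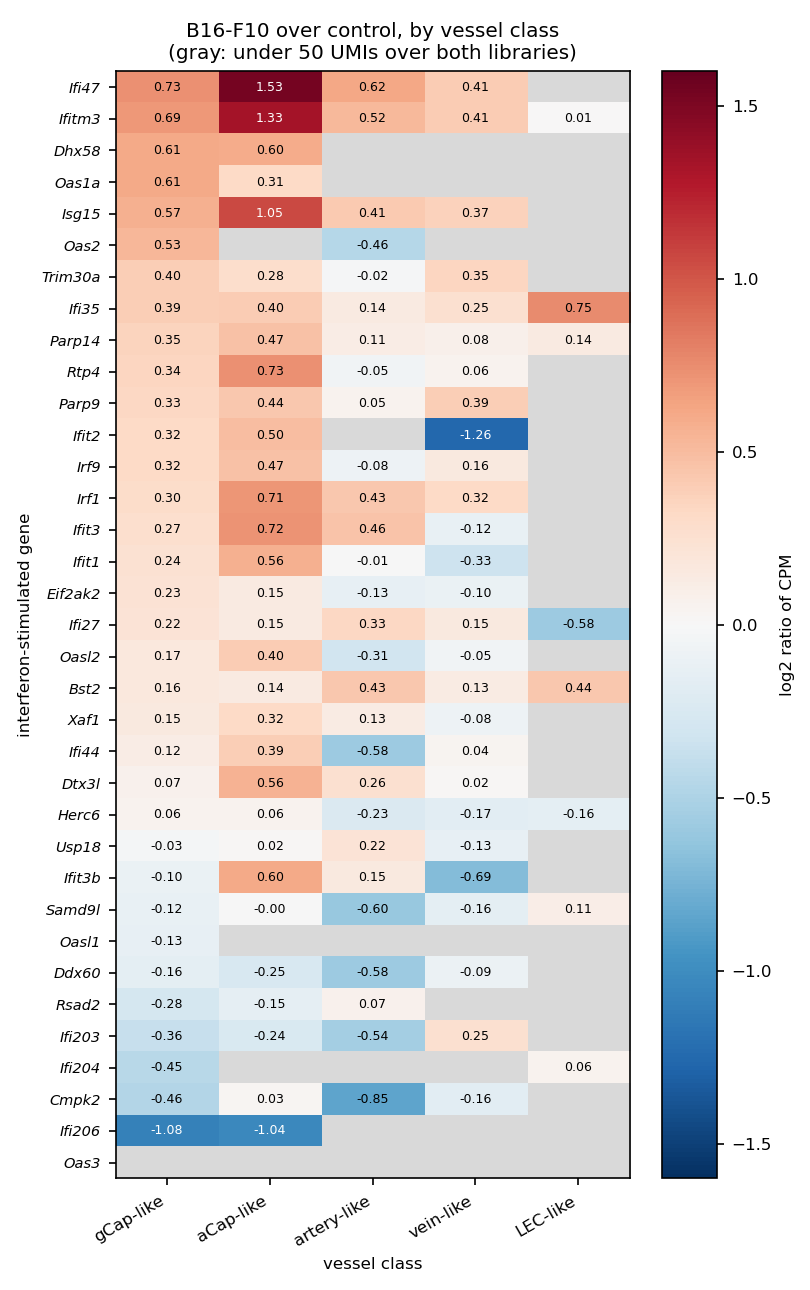
Log2 ratio of CPM, B16-F10 over control, for each member (rows, ordered by the gCap-like ratio) in each vessel class (columns), with red for higher, blue for lower and gray for fewer than 50 UMIs over both libraries. Ifi47 and Ifitm3 are red in the first 4 columns, and Ifit2 and Ifit3b are red in aCap-like and blue in vein-like cells.

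The order of levels between classes differed by gene. In control lungs the core sum lay at 2035 CPM in gCap-like, 2031 in vein-like, 1911 in artery-like, 1445 in aCap-like and 830 in LEC-like cells, and gCap-like and vein-like cells did not differ beyond counting error. In B16-F10 lungs it was 2385 in gCap-like and 2128 in vein-like cells, while artery-like (1871) and aCap-like cells (1865) had overlapping intervals. LEC-like cells were the lowest of the 5 in both libraries. Ifitm3 followed another order in control lungs, with 2568 CPM in vein-like, 1749 in artery-like, 1603 in LEC-like, 1487 in gCap-like and 172 in aCap-like cells. In B16-F10 lungs aCap-like cells were still the lowest for Ifitm3, at 433 CPM.

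Different clusters filled the capillary classes in the 2 libraries, so the ratios were also taken inside each cluster. Clusters 1 and 4 of the gCap-like class were mostly control cells (1434 against 487, and 884 against 254), and cluster 3 was mostly B16-F10 cells (83 against 1066). Genes leading cluster 3 included Tmem252, Adamts9 and Scarb1. The paper names these among the top markers of a reactive capillary cluster (rCap), which it set apart from gCap. The gCap-like class here includes cluster 3, so its ratios are not those of the study's gCap alone. In the aCap-like class, cluster 7 was mostly B16-F10 cells (175 against 787), and clusters 8 and 9 were mostly control cells (655 against 100, and 619 against 85). Ifitm3 and Ifi47 were higher in all 6 gCap-like clusters (0.36 to 0.78 and 0.39 to 0.93). They were also higher in all 3 aCap-like clusters (1.19 to 1.80 and 0.82 to 2.51). Cluster 7 held most B16-F10 aCap-like cells, with Ifi47 at 0.82 and Isg15 at 0.66, within the ranges of gCap-like clusters (to 0.93 and 0.72). Its Ifitm3 (1.19) and Irf1 (0.54) lay above theirs (to 0.78 and 0.39). These genes had higher ratios in clusters 8 and 9, and cluster 9 was one of low UMI count. Ifi206 was lower in all 6 gCap-like clusters (-1.62 to -0.93). The core sum was higher in 4 gCap-like clusters and lower in 1, cluster 1, with a range of -0.08 to 0.23. The pooled gCap-like ratio of 0.23 thus lay at the upper end of that range. The part of cluster make-up in it, and in the ISG-high shares given below, which are also pooled, was not tested. In all 3 aCap-like clusters the core sum was higher (0.40 to 0.78). Rsad2 had no common direction, at -1.26 in cluster 1 and 0.56 in cluster 2. Isg15 was higher in 5 of 6 gCap-like clusters, the exception being at -0.01. Irf1 was higher in 4 and lower in 1, cluster 3 (-0.39, -0.60 to -0.17). Ifi203 was lower in 3 of 6 and higher in none, with its lowest ratio in cluster 3 (-0.91, -1.26 to -0.55). In the 3 aCap-like clusters taken singly, Ifi206 had intervals that held 0 (-1.37 to -0.22).

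**Figure D3:**
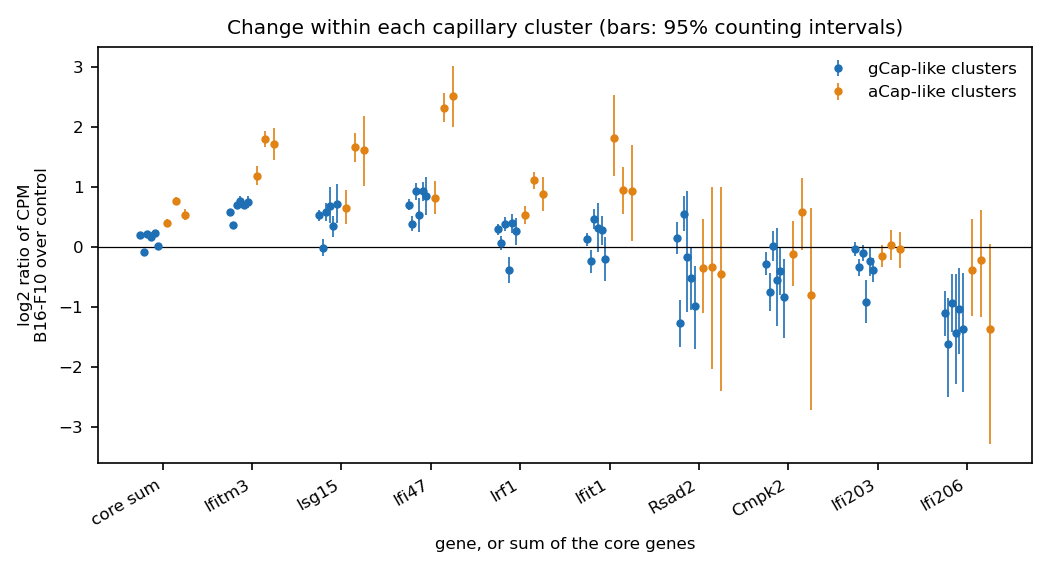
Log2 ratio of CPM, B16-F10 over control, inside each of the 6 gCap-like (blue) and 3 aCap-like clusters (orange), for the core sum and 9 members, with bars for 95% counting intervals. All points of Ifitm3 and Ifi47 lie above 0, all points of Ifi206 lie below 0, and those of Rsad2 lie on both sides.

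A cluster of ECs led by Csf2 and Sox9, which met no vessel class, held 7 control and 307 B16-F10 cells. In its B16-F10 cells the core sum was 932 CPM, below the 2385 of gCap-like cells, while Ifitm3 was at 3080 CPM, above their 2404.

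To see whether the difference lay in all cells or in a few, each cell was thinned to 2000 UMIs, and cells with fewer were left out (62 control and 29 B16-F10 gCap-like cells). The mean core sum per gCap-like cell was 4.05 UMIs (control) and 4.80 UMIs (B16-F10), with a median of 3 in both. Cells with no core UMI made up 10.4% and 7.23%. Cells with more than 13 core UMIs, the 95th percentile of control, were called ISG-high. ISG-high were 222 of 4780 control cells (4.64%, interval 4.07 to 5.28), and after melanoma injection 291 of 4451 (6.54%, interval 5.83 to 7.30), a difference of 1.89 percentage points (0.957 to 2.84). Without thinning the shares were 4.94% and 8.48%, and with all members summed, Ifitm3 included, the difference was 5.30 points. A cut on a continuous sum gives a range and not a cell type, and 152 and 177 cells had 12 to 15 core UMIs. The upper tail was fuller in the B16-F10 library, and 5% of the cells held a like share of the core UMIs in both libraries, 23.8% and 22.96%.

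In the other classes, the difference in ISG-high cells had an interval that held 0 at 2000 UMIs per cell, and in aCap-like cells this changed with the limit and with thinning. They numbered 12 of 1431 and 12 of 966 aCap-like cells, a difference of 0.404 points (-0.413 to 1.39). With at least 10 core UMIs as the limit the aCap-like shares were 2.45% and 5.18%, a difference of 2.73 points (1.19 to 4.45). Without thinning they were 1.52% and 4.53%, a difference of 3.01 points (1.63 to 4.59). The difference was 0.207 points in artery-like (-3.65 to 4.53) and 0.573 in vein-like cells (-3.24 to 4.48). LEC-like cells held 0 of 58, which allows a share of up to 6.16%, and 1 of 51. In aCap-like cells the mean core sum was nevertheless 2.85 and 3.66 UMIs per cell, and cells with none made up 12.2% and 7.25%.

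**Figure D4:**
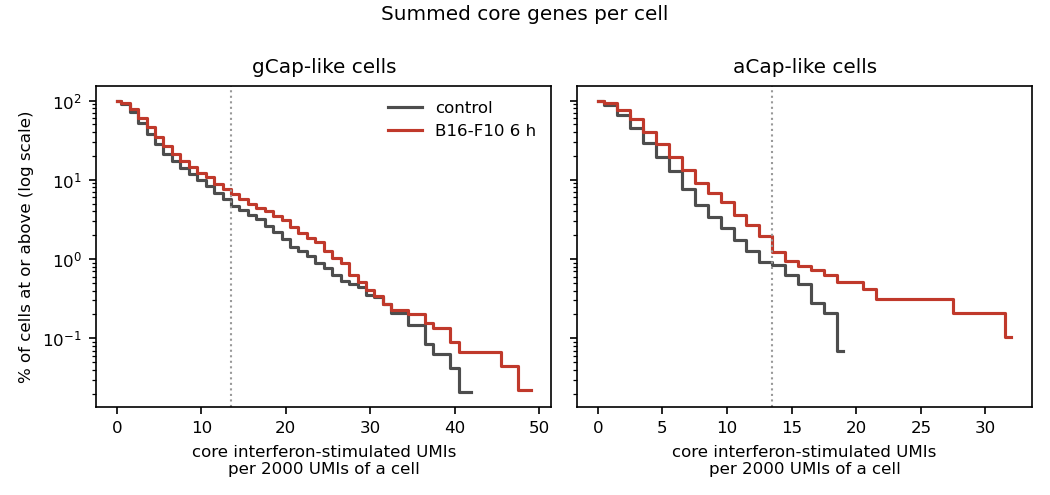
Percentage of cells (log axis) with at least the number of core UMIs on the x axis, per 2000 UMIs of a cell, for gCap-like (left) and aCap-like cells (right), in control (gray) and B16-F10 lungs (red), with the ISG-high limit dotted. To the right of the dotted line lie 4.64% and 6.54% of gCap-like cells.

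Members differed in how far they were concentrated in cells that carried many of the others. Each gene was left out of the core sum, and its mean in the top cells for the remaining genes was divided by its mean in all other gCap-like cells. Ifit3 was 19.2-fold higher in such cells in control and 14.8-fold in B16-F10 lungs. Rsad2 (18.0 and 11.8), Oasl1 (17.9 and 15.6), Ifit3b (17.9 and 13.7), Ifit1 (12.5 and 12.5), Ifi206 (10.02 and 9.62) and Isg15 (9.63 and 9.89) followed. At the other end were Irf1 (1.37 and 1.64), Ifi27 (1.46 and 1.09), Bst2 (1.66 and 1.76) and Ifitm3 (1.73 and 1.62). All of the latter are members kept out of the core sum beforehand, so their place here is not independent of that choice. The genes most bound to these cells were not those with the highest ratios. Ifitm3 was present in 4567 of 4842 cells in control and 4382 of 4480 after melanoma injection and had a ratio of 0.69, whereas Rsad2 was present in 491 and 429 cells and had a ratio of -0.28. Isg15 combined concentration in these cells with a ratio past the fold.

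**Figure D5:**
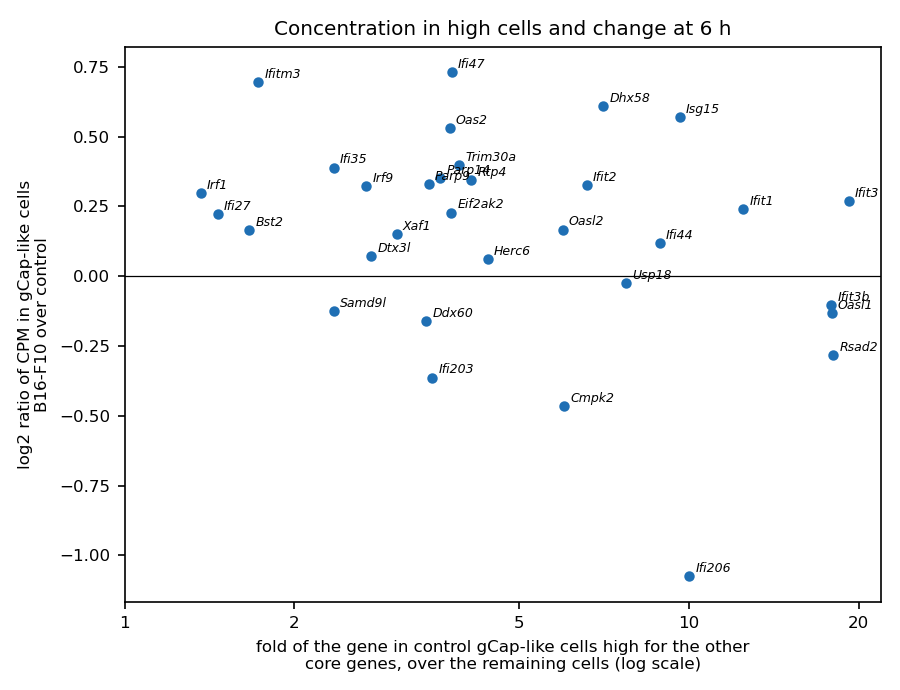
Each point is a member in gCap-like cells, with its fold in control cells high for the other core genes on the x axis (log scale) and its log2 ratio, B16-F10 over control, on the y axis. Ifitm3 lies at 1.73-fold with a ratio of 0.69, and Rsad2 and Ifi206 lie at 18.0-fold and 10.02-fold with ratios of -0.28 and -1.08.

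The study described a reactive capillary state (rCap) among capillary ECs of melanoma-injected lungs. gCap-like cells were ranked into 4 equal groups by the sum of 43 of its rCap markers that are not interferon genes, a list chosen by the study partly on these samples. From the lowest to the highest group the mean core sum went from 3.62 to 4.54 UMIs per cell in control and from 4.25 to 5.25 in B16-F10 lungs. Ifitm3 went from 2.32 to 3.40 and from 3.67 to 6.33 UMIs per cell. Rsad2 went from 0.0393 in the lowest to 0.0770 in the highest control group, while in the B16-F10 library it was lowest in the top group, at 0.0243. Ifi206 lay between 0.0176 and 0.0469 in the control groups and between 0.0108 and 0.0135 in the B16-F10 groups. Groups of one library share its depth and free RNA, and these values are a description. Of the members, 6 are themselves in the study's rCap marker list, so their rise with the other rCap markers is not independent of that choice. There are also 21 members in the study's list of 50 markers of interferon-rich ECs, which is not independent of these samples.

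Among other genes of the pathway, 26 of 37 listed were measured in gCap-like cells, with a median ratio of 0.20 against -0.04 over all genes. Of these, 17 had an interval above 0, 4 below and 5 held 0. By sign 20 were higher, against 45.4% of all genes. The fold was reached upward by 7 (26.9%), against 9.93% of all genes, and downward by none, against 12.6%. Of the 10 ligands listed, Ifng and Ifnk were the ones with any UMI in the cells kept, and Ifnb1 and the Ifna genes had none. Ifng had 9 and 2 UMIs in 8 and 26 lymphoid-like cells (control and B16-F10) and 0 and 1 in gCap-like cells. Ifnk had no more than 2 UMIs in any class. Cells were sorted against the leukocyte marker Ptprc, so these counts do not describe ligands made elsewhere in the lung. Receptor chains went in both directions, with Ifnar1 at 80.2 and 66.3 CPM (-0.27, -0.35 to -0.20) and Ifnar2 at 227 and 249.6 CPM (0.14, 0.09 to 0.18). The other genes with an interval below 0 were Tyk2 (-0.43, -0.56 to -0.29), Mavs (-0.28, -0.46 to -0.09) and Ifngr2 (-0.20, -0.26 to -0.13).

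By the roles in the list, the 7 pathway genes past the fold were 3 brakes on signaling (Socs1, Socs3 and Ptpn2), 2 sensors or adaptors of nucleic acid (Tmem173 and Zbp1) and 2 signal genes (Irf8 and Jak2). Tmem173 (STING), the adaptor of cytosolic DNA sensing, had 76 and 1019 UMIs (3.63, 3.29 to 3.99). Socs3, an inhibitor of cytokine receptors that signal through Stat3, had 65.3 and 488 CPM (2.90, 2.84 to 2.96), and Irf8, a transcription factor of interferon gamma responses, had 39 and 315 UMIs (2.90, 2.42 to 3.42). Zbp1, a sensor of Z-form nucleic acid, had 353 and 874 UMIs (1.19, 1.01 to 1.38), and Socs1, which blocks interferon receptors, had 140 and 322 (1.09, 0.80 to 1.38). All of these ratios were above that of any member in gCap-like cells. Jak2 (0.65) and the phosphatase Ptpn2 (0.58) completed the group. Jak2 differed by vessel class, being lower in aCap-like cells (-0.37, -0.55 to -0.20). In LEC-like cells Jak2 had 34 and 18 UMIs (-0.92, -1.83 to -0.05). Its intervals held 0 in artery-like (0.05) and vein-like cells (0.24). Stat2, which joins Irf9 in the type I complex, and the transcription factor Irf7 had lower ratios in gCap-like cells than these 7 genes. Stat2 was at 88.4 and 106.6 CPM (0.27, 0.20 to 0.34) and Irf7 at 17.6 and 23.2 CPM (0.40, 0.26 to 0.55).

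Markers of several other cell types were higher in the B16-F10 gCap-like cells, and those of epithelial cells were lower. Summed CPM in control and B16-F10 lungs were 24.0 and 43.5 for 7 macrophage and monocyte markers (with Ms4a7 at 0 in the latter), 2.76 and 7.95 for 6 neutrophil markers, 1.68 and 1.83 for 8 lymphoid markers, and 26.6 and 54.8 for 8 melanoma markers. Mural markers were at 23.0 and 38.8 CPM, platelet markers at 21.8 and 25.5, erythroid markers at 1227 and 1442, and epithelial markers at 191 and 152. Mlana, Dct, Tyrp1 and Slc45a2 were at 0 in control cells. Ptprc was at 0.303 and 1.35 CPM, against 1679 in macrophage/monocyte-like cells of the B16-F10 library. Those macrophage/monocyte-like cells had a core sum of 1684 CPM, and melanoma-like cells had 157, both below the 2385 CPM of gCap-like cells. Free RNA, set from surfactant and club cell genes, was estimated at 1.48% and 2.11% of gCap-like UMIs. At the composition of barcodes with up to 100 UMIs, this would supply 21.1 and 56.8 CPM of Ifitm3. A further filter left out every cell that carried a platelet, mural, macrophage or monocyte, neutrophil, lymphoid or melanoma marker other than Mitf. Erythroid and epithelial markers were not used in it. These admixed cells made up 33.5% and 62.1% of gCap-like cells. Without them Isg15 was at 0.48, Ifi206 at -1.29 and Rsad2 at -0.06.

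Ratios in this comparison moved with gene length. Over all genes in gCap-like cells, the median ratio was 0.10 among the shortest of 4 equal groups by span and -0.18 among the longest. The members had medians of 0.27, 0.12, 0.28 and 0.20 from the shortest to the longest group, above that of all genes in each. Spearman's rho of the ratio with span was -0.18 over 34 members and -0.24 over 13229 genes, as a description across genes of the same libraries. The part of gene length in the ratios of single members was not tested.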

How the data were processed

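The authors deposited raw UMI counts per gene and barcode for every barcode, with no normalization, and the headers name Cell Ranger 7.2.0. The paper gives an earlier version, the labels name mm10, and whether intron reads were counted is not given in the sources used here. Such counting would raise long genes.

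The limits were 1000 to 5000 genes and less than 20% mitochondrial UMIs per cell (8394 and 8321 cells). Scrublet in scanpy 1.11.5 removed 564 and 554 doublets, at 0.8% per 1000 cells, leaving 7830 and 7767. Log values per 10000 UMIs of 2941 variable genes, without interferon and rCap genes, were scaled per library, reduced to 30 components and clustered with leidenalg 0.10.2 (20 neighbours, resolution 0.8, 24 clusters). A class needed at least 3 markers and 50% of its list, each 1.5-fold above other clusters and in 10% of cells. Endothelial clusters with markers of other cell types (749 and 1277 cells) were left out of the vessel classes. Names rebuilt in this way may differ from the study's.

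UMIs were summed per class and library. Poisson, conditional binomial, Clopper-Pearson and Newcombe 95% intervals were computed with scipy 1.17.1, and the steps were tested on simulated data. Class differences combine the counting errors of both ratios. All members were named in gCap-like cells, and in other classes those past 0.5 or on the other side of 0. The members, lists and rules were chosen with earlier results of these data known. Coordinates are from GENCODE M21 and RefSeq. 1 gene of the pathway list is not reported here.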

Additional observations from a re-analysis of the deposited data

Results flagged for a closer look

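Several members had counting intervals on opposite sides of 0 in different vessel classes. Between aCap-like and vein-like cells these were Ifit1 (log2 ratio 0.56 and -0.33), Ifit2 (0.50 and -1.26) and Ifit3b (0.60 and -0.69). Between aCap-like and artery-like cells they were Oasl2 (0.40 and -0.31) and Ifi44 (0.39 and -0.58). Ifi27 was at 0.22 in gCap-like and -0.58 in LEC-like cells. With 1 library per group these differences between classes were not tested, and some of them rest on few UMIs.

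Core members were also detected in barcodes outside the cells kept. In the B16-F10 library their sum was 1618 CPM in barcodes with 1 to 100 UMIs (1353 in control), 1269 in larger barcodes with under 300 genes (1007 in control), and 1663 in barcodes with over 5000 genes (1453 in control).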

How the results depend on the processing

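No paired analysis was possible because there is 1 library per group, and for the same reason no replicate could be left out. Of 219 alternative values of 18 summary results, 194 stayed within the error of the value reported (for counts, within 1.5 times), 24 moved and 1 reversed. Of 407 values of 34 single members in gCap-like cells, 378 did not move, 27 moved and 2 reversed, Ifit2 to -0.00021 when cells were thinned and Herc6 to -0.0048 when all ECs were summed. Medians over members ranged from 0.18 to 0.29 in gCap-like, 0.29 to 0.40 in aCap-like, -0.12 to 0.15 in artery-like, 0.02 to 0.18 in vein-like and -0.0011 to 0.29 in LEC-like cells. The core sum in gCap-like cells was 0.27 relative to the median ratio over genes, 0.24 thinned and 0.21 over all ECs. In aCap-like cells it was 0.34 with no upper limit of genes and 0.32 without cells with admixed markers. In artery-like cells it had no stable sign, at 0.071 with at least 500 genes, 0.047 with no upper limit, 0.055 with no doublet removed and -0.20 without admixed cells. In vein-like cells it was 0.16 with no upper limit, 0.14 thinned and reversed to -0.085 without admixed cells, a filter that did not use erythroid markers. In LEC-like cells it was 0.15 with no doublet removed, 0.16 thinned and 0.13 without admixed cells. The cause was not tested.

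Members higher by 1.0 on the log2 scale numbered 0 in gCap-like and 3 in aCap-like cells. Without clusters of low UMI count, an alternative added after seeing the data, 6 aCap-like members passed 0.5. Lower members in gCap-like cells numbered 2 without admixed cells and 2 thinned, and in aCap-like cells 2 with at least 10 UMIs per gene. The difference in ISG-high gCap-like cells was 0.740 points above the 99th percentile and 5.30 with all members summed. In aCap-like cells it was 1.44 points without low-UMI clusters and 2.73 with at least 10 core UMIs. Artery-like, vein-like and LEC-like values are limited by their few cells.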
